A study of Equus caballus with 2 samples.

Results

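The TNF superfamily ligands and receptors, with the TRAF adaptors that bind many of the receptors inside the cell, were examined in equine endometrial fibroblasts with and without TGF-β1. Members were taken by gene symbol alone: every gene whose symbol begins with TNFSF or TNFRSF, together with FAS, FASLG, LTBR, CD40, NGFR and TRAF1 to TRAF7. This gave 38 of the 21426 genes in the count matrices, under 37 symbols, because TNFRSF9 stood under 2 Ensembl identifiers. They were 11 ligands, 18 membrane receptors of which 3 carry a death domain, 2 soluble decoy receptors and 7 TRAFs. NGFR was not matched and is not analysed here. No symbol beginning with TNFRSF10 (death receptors of TNFSF10) and no TNFRSF25 (DR3) was matched either, so these receptors were not measured.

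Fibroblasts of 4 mares in the mid-luteal phase, with healthy or only mildly fibrotic endometrium, had been expanded in culture before they were seeded on collagen-coated hydrogels. The control group received medium in which albumin replaced the serum and nothing else, and the TGF-β1 group received the same medium with recombinant human TGF-β1, the main profibrotic cytokine, at 10 ng/ml for 24 h. The unlabelled cells of the 4 mares were pooled within each group and made into 1 droplet library of 3′ transcript ends, in which a unique molecular identifier (UMI) marks each transcript. In the count matrices used here each group was therefore 1 library whose cells are not assigned to mares, so no test between the groups was made, and the treatment cannot be told apart from the preparation of the library.

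Ligands of the TNF superfamily are mostly trimers on the cell surface or shed from it, and they act by clustering their receptors. Receptors with a death domain can recruit adaptors that start apoptosis, whereas most of the others bind TRAF proteins and reach NF-κB and the stress kinases. Decoy receptors bind ligand without passing on a signal. In fibroblasts, TNF receptor 1, TNF receptor 2, the lymphotoxin β receptor and Fn14 (TNFRSF12A) are known to be involved in inflammation and tissue repair. No member's sequence is shown, since the tables used here held none.

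After the study's filters on cells (a minimum of 20000 UMIs and 3500 genes, and less than 4% mitochondrial UMIs), 3865 of 4384 control barcodes and 4513 of 5124 TGF-β1 barcodes remained, with 210497250 and 219731144 UMIs. The median cell held 50313 UMIs in the control library and 43142 after TGF-β1. Only 2 kept barcodes occurred in both libraries. The summed level of 9 fibroblast markers was 21715 CPM (UMIs per 1000000 UMIs of kept cells) in the control library and 21795 CPM after TGF-β1, although PDGFRA and THY1 were more than 2-fold lower. Of the markers of other cells, PTPRC of leukocytes had 1 and 0 UMIs, EPCAM of epithelium 1 and 3, and CDH5 of endothelium 3 and 2. The summed level of 8 matched immune symbols, almost all of it CD68 and CD14, was 56.7 and 52.9 CPM, that of 5 endothelial markers 0.926 and 0.610 CPM, and that of 6 matched epithelial markers 134 and 12.3 CPM. The epithelial sum was almost all KRT8, at 114 and 4.48 CPM, and KRT7, at 19.3 and 7.04 CPM. Both were lower after TGF-β1, and their part in the members' values was not tested.

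Levels are CPM of summed UMIs. A 3′ library yields about 1 tag per transcript whatever its length, so CPM was not divided by length. Whether reads in introns were counted is not stated. Levels of different genes were compared only to name the genes with the highest counts and their part in a sum. Each ratio is the level after TGF-β1 divided by the control level, as a log2 value with no pseudocount added, and every interval is a 95% interval for counting error alone. In 26 of the 38 members the mean of both libraries reached 1 CPM, as in 12116 of all genes. Of these 26, 18 were lower after TGF-β1 and 8 were higher, beside 51.3% of all 12116 genes that were lower. The counting interval lay below 0 for 18 members and above 0 for 7, and spanned 0 for TNFRSF21 alone. Among all genes the interval lay below 0 for 42.2% and above 0 for 39.5%, so at this depth a ratio beyond counting error was common. Their median log2 ratio was -0.38, and that of all genes was -0.01. More than 2-fold differences were found in 6 members, of which TNFSF10 and TNFSF11 were higher (3.45% of all genes were) and TNFSF13B, TNFRSF14, TNFRSF19 and TRAF7 were lower (3.46% of all genes were). Both directions together cover 6.91% of all genes. TNFSF11, TNFSF13B, TNFRSF19 and TNFRSF9 (ENSECAG00000017309) reached the mean of 1 CPM with 1 library below it, so passing that minimum and differing between libraries are not independent for them.

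**Figure D1:**
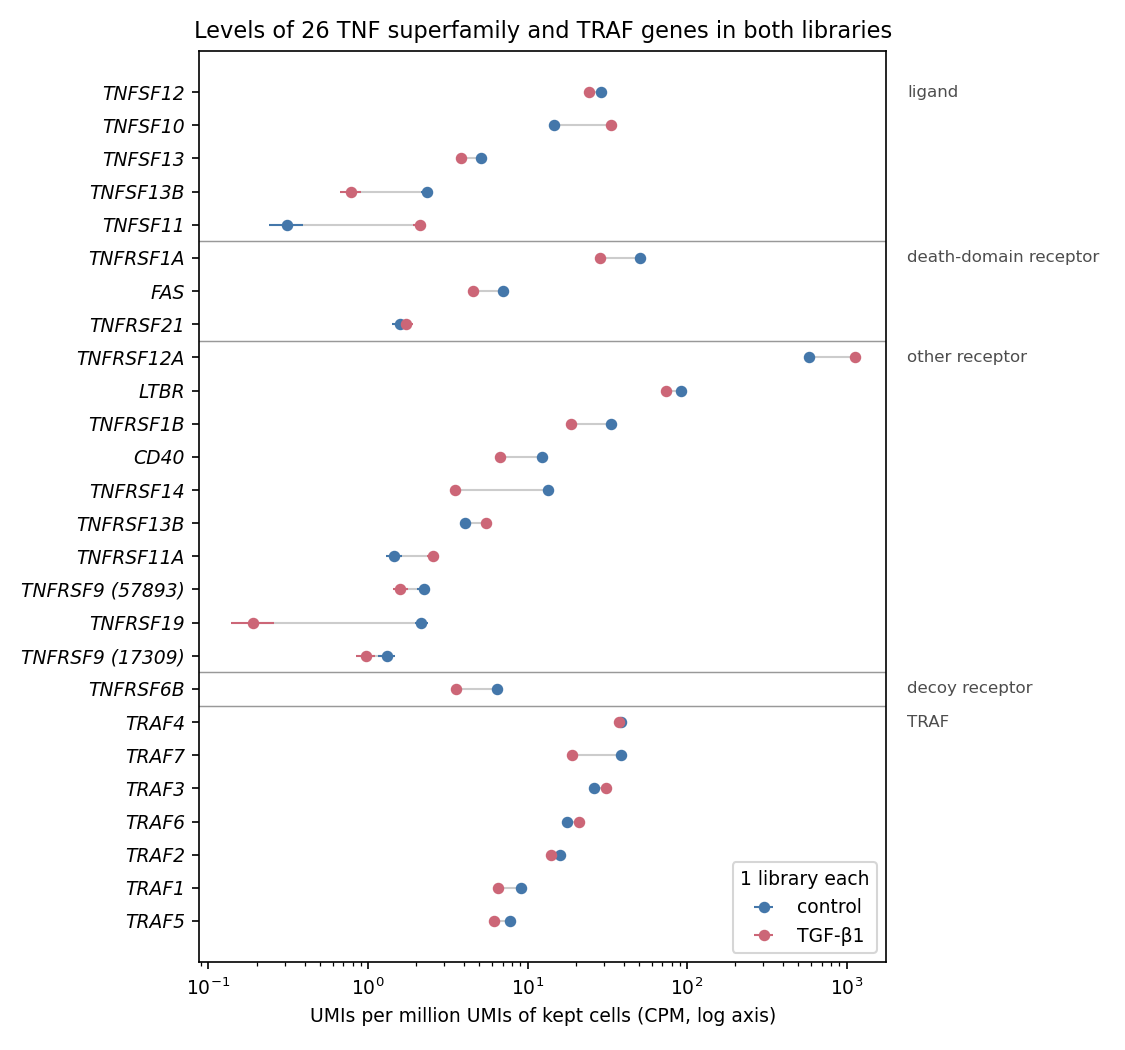
The horizontal axis gives the level of each member in CPM on a log axis and the vertical axis lists by role the 26 members that averaged 1 CPM or more. Points are the control (blue) and TGF-β1 (red) library with 95% Poisson intervals, and the red point lies left of the blue one for 18 members.

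All members together held 213813 UMIs in the control library and 325931 after TGF-β1, or 1016 and 1483 CPM. TNFRSF12A alone supplied 56.9% of them in the control library and 76.1% after TGF-β1. Without it, the other 37 genes summed to 438 CPM and 354 CPM.

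TNFSF10 (TRAIL), a ligand that binds death receptors, was measured at 14.6 CPM (95% interval 14.1 to 15.2) in the control library and at 33.4 CPM (32.6 to 34.2) after TGF-β1, a 2.28-fold higher level (log2 ratio 1.19, 1.13 to 1.25). The RANK ligand TNFSF11, known as the driver of osteoclast formation, had 65 UMIs in the control library and 464 after TGF-β1. Its level was 0.309 CPM and 2.11 CPM, a log2 ratio of 2.77 (2.40 to 3.17). The other 3 member ligands of at least 1 CPM were lower after TGF-β1.

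TNFSF12 (TWEAK), the ligand of Fn14, stood at 29.0 CPM in the control library and 24.4 CPM after TGF-β1 (log2 ratio -0.25, -0.30 to -0.19). For TNFSF13 (APRIL), a survival factor of plasma cells, the levels were 5.12 CPM and 3.83 CPM, with a ratio of -0.42 (-0.55 to -0.29). TNFSF13B (BAFF), a survival factor of B cells, had 492 and 171 UMIs, or 2.34 and 0.778 CPM. The ratio of TNFSF13B was -1.59 (-1.85 to -1.33), the farthest below 0 of the 5 ligands above 1 CPM.

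The other 6 ligands lay below a mean of 1 CPM. TNFSF15 (TL1A), which binds the death receptor DR3, had 260 control UMIs and 21 after TGF-β1, a ratio of -3.69 (-4.41 to -3.05). In cells thinned to equal depth, 80.6% of its control UMIs came from the 1% of cells with the most of them, and 1.53% of control cells had any. TNFSF4 (OX40 ligand) had 96 and 118 UMIs, TNFSF9 (4-1BB ligand) 79 and 61, and TNFSF8 (CD30 ligand) 5 and 13, and each of these ratios had an interval that spanned 0. FASLG, the ligand of Fas, had 1 UMI in each library, and TNFSF14 (LIGHT) had 1 and 0. These counts are at or under the floor of 3 UMIs, which is 0.0143 CPM for control and 0.0137 CPM for TGF-β1.

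Of the death-domain receptors, TNFRSF1A (TNF receptor 1), the main receptor for soluble TNF, was at 51.0 CPM (50.1 to 52.0) in control cells and at 28.4 CPM (27.7 to 29.1) after TGF-β1. Its ratio was -0.84 (-0.89 to -0.80). FAS, which triggers apoptosis when bound by its ligand, had 7.02 and 4.57 CPM, a ratio of -0.62 (-0.73 to -0.50). TNFRSF21 (death receptor 6) stood at 1.58 and 1.73 CPM, and its ratio of 0.13 (-0.08 to 0.35) could not be told from 0 at this depth. TNFRSF1A and FAS were thus lower by more than counting error, and TNFRSF21 was not.

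TNFRSF12A (Fn14), a small receptor that many injured tissues induce, was the member with the most UMIs. It had 121604 UMIs in the control library and 248042 after TGF-β1, at levels of 578 CPM (574 to 581) and 1129 CPM (1124 to 1133). The level after TGF-β1 was 1.95-fold higher (log2 ratio 0.97, 0.96 to 0.98), just short of the 2-fold limit. When each cell was thinned to 20000 UMIs, or when CPM was averaged over cells, the log2 ratio was 1.02 and 1.01, past the limit. The shift ran through the whole population: the 5th, 50th and 95th percentile of thinned TNFRSF12A UMIs per cell were 3, 11 and 23 in control cells and 11, 23 and 39 after TGF-β1. After thinning, 19 of 3865 control cells and 0 of 4513 TGF-β1 cells had no TNFRSF12A UMI.

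The receptors of TNF, lymphotoxin and LIGHT were lower, as was CD40. LTBR, the lymphotoxin β receptor of stromal cells, was at 91.9 CPM in control cells and 73.5 CPM after TGF-β1 (ratio -0.32, -0.35 to -0.29). TNFRSF1B (TNF receptor 2), which prefers membrane TNF and binds TRAF2, had 33.6 and 18.7 CPM, with a ratio of -0.84 (-0.90 to -0.79). TNFRSF14 (HVEM), the receptor for LIGHT and a partner of the inhibitory receptor BTLA, had 13.5 CPM (13.0 to 14.0) in control cells and 3.52 CPM (3.27 to 3.77) after TGF-β1. That is a 3.84-fold lower level (ratio -1.94, -2.06 to -1.83). CD40, best known from antigen-presenting cells, had 12.3 and 6.73 CPM, a ratio of -0.87 (-0.96 to -0.78).

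TNFRSF19 (TROY), a receptor known from skin, brain and stem cells, had 455 UMIs in the control library and 42 after TGF-β1, or 2.16 and 0.191 CPM. Its ratio of -3.50 (-3.99 to -3.04) was the lowest of the 26, and with cells thinned to 20000 UMIs it was -4.38. The thinned value rests on 11 TGF-β1 cells with 1 UMI each. The 2 genes named TNFRSF9 (4-1BB, a T cell costimulator) were at 2.23 and 1.59 CPM (ENSECAG00000057893) and at 1.31 and 0.969 CPM (ENSECAG00000017309), with ratios of -0.49 and -0.44. They may split the reads of 1 gene, and both lay on the lower side.

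TNFRSF13B (TACI), a receptor of APRIL and BAFF, had 4.05 CPM in control cells and 5.52 CPM after TGF-β1 (ratio 0.45, 0.32 to 0.58). TNFRSF11A (RANK), the receptor of TNFSF11, had 1.45 and 2.54 CPM (ratio 0.80, 0.60 to 1.01). With TNFRSF12A, these were the receptors outside the death-domain group that were higher after TGF-β1, 3 of 10 above 1 CPM. Below 1 CPM, TNFRSF18 (GITR) had 42 and 133 UMIs (ratio 1.60, 1.09 to 2.14), TNFRSF17 (BCMA) 90 and 138, and TNFRSF8 (CD30) 180 and 113. TNFRSF4 had 2 and 8 UMIs and TNFRSF13C had 1 and 4, with intervals that spanned 0. TNFRSF18 was concentrated in few cells, 0.414% of control cells and 0.886% after TGF-β1, with a variance of 2.45 and 3.16 times the mean.

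Both decoy receptors were lower after TGF-β1. TNFRSF6B (decoy receptor 3), which binds FASLG, LIGHT and TL1A, had 6.42 and 3.58 CPM (ratio -0.84, -0.97 to -0.71). TNFRSF11B (osteoprotegerin), the decoy for TNFSF11, had 80 and 41 UMIs, or 0.380 and 0.187 CPM (ratio -1.03, -1.61 to -0.47). In the RefSeq annotation of the assembly TB-T2T, which is not the build of the counts, TNFRSF6B overlaps ARFRP1 and lies next to RTEL1, TNFRSF12A overlaps CLDN6, TNFSF13B overlaps ABHD13 and TRAF6 overlaps PRR5L. TNFRSF11B overlaps COLEC10, and LTBR, TRAF2, TRAF5, TNFSF15, TNFRSF8, TNFRSF13C, TNFRSF17 and TNFRSF18 overlap genes that have only a locus number. The members TNFSF12 and TNFSF13 lie within 5000 bases of each other. How the authors' counting shared reads at such places was not tested.

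The TRAFs moved in both directions and mostly by little. TRAF7, an unusual member that lacks the TRAF domain, had 38.8 CPM (38.0 to 39.7) and 19.1 CPM (18.5 to 19.6), a ratio of -1.03 (-1.08 to -0.97). With cells thinned to 20000 UMIs the ratio of TRAF7 was -0.99, inside the 2-fold limit. TRAF1, which has no RING domain and is itself an NF-κB target, had 9.16 and 6.57 CPM (ratio -0.48, -0.58 to -0.38), and TRAF5 had 7.76 and 6.14 CPM (-0.34, -0.44 to -0.23). TRAF2, the adaptor of TNF receptor complexes, was at 15.9 and 14.0 CPM (-0.18, -0.25 to -0.11). TRAF4 stood at 38.6 and 37.2 CPM, a ratio of -0.05 (-0.10 to -0.01) that was barely beyond counting error. TRAF3, which restrains the alternative NF-κB route, was higher at 26.0 and 31.2 CPM (0.26, 0.21 to 0.31), as was TRAF6, the adaptor of RANK and of the interleukin-1 receptor family, at 17.8 and 21.2 CPM (0.25, 0.19 to 0.31).

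**Figure D2:**
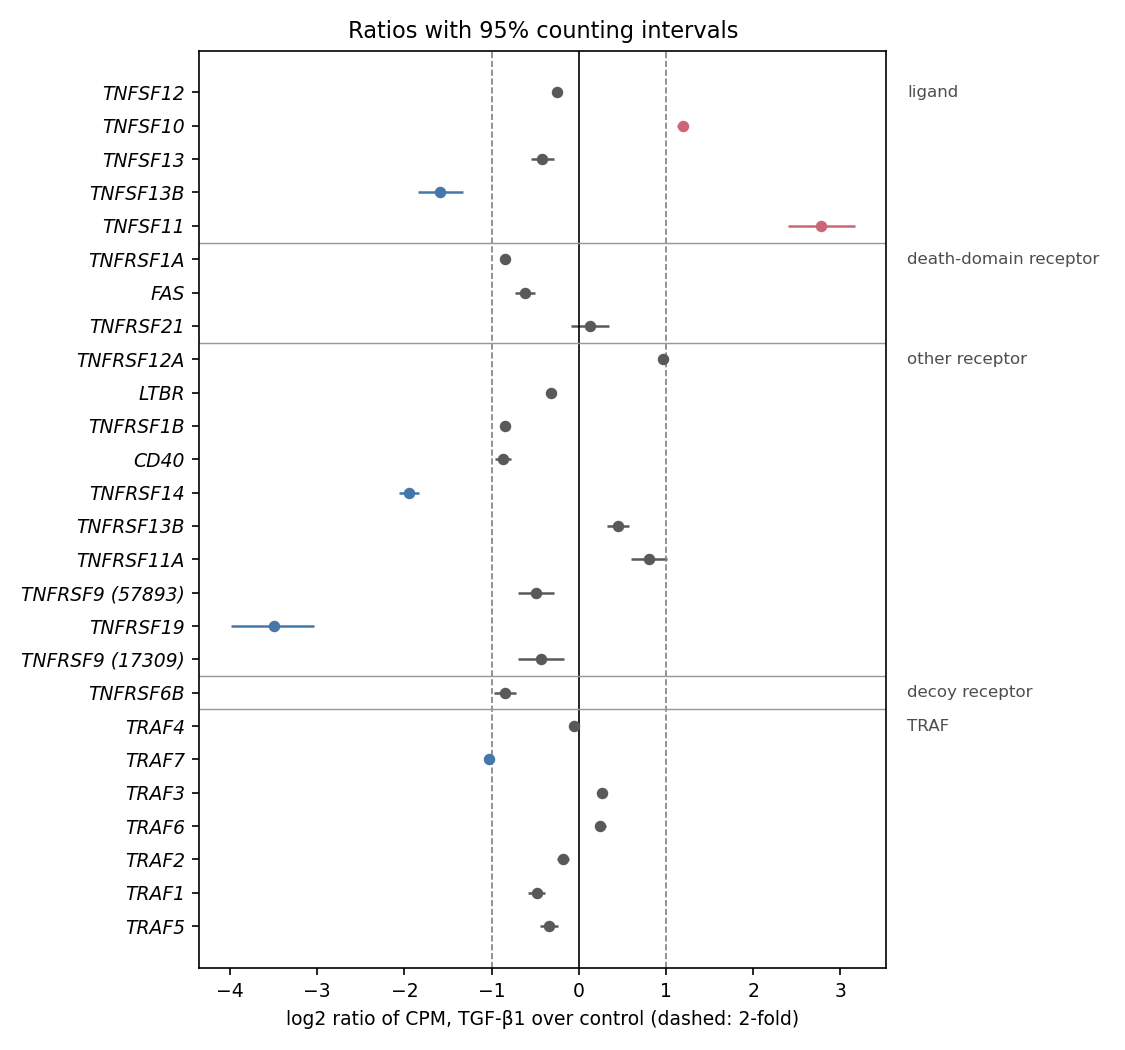
The horizontal axis gives the log2 ratio (TGF-β1 over control) with its 95% counting interval, and the vertical axis lists the 26 members by role. Dashed lines mark 2-fold, with 2 members (red) above and 4 (blue) below these limits, and TNFRSF12A lies just inside the upper line at 0.97.

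The share of cells that held a transcript followed the levels. Because control cells held more UMIs, each cell was thinned at random to 20000 UMIs before cells with at least 1 UMI were counted. The share was lower after TGF-β1 for 18 of the 26 members, beside 48.8% of all genes. No cell type that should lack these genes was present, so the share that free RNA gives could not be measured, and doublets were not removed.

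Among the ligands, TNFSF10 was found in 20.5% of control cells (19.2 to 21.8) and 37.9% of TGF-β1 cells (36.5 to 39.3). Without thinning the shares were 37.5% and 57.0%. A Poisson spread of the same UMIs over the cells would give 27.8% and 50.9%, and the variance of TNFSF10 was 2.12 and 2.19 times its mean, beside a median of 1.11 and 1.10 over all genes. By this measure TNFSF10 was spread less evenly over the cells than the median gene in both libraries, but genes were not matched for level. TNFRSF12A had a variance of 3.21 and 3.14 times its mean. TNFSF12 was found in 44.3% and 39.0% of cells, TNFSF13 in 9.44% and 7.64%, TNFSF13B in 4.84% and 1.66%, and TNFSF11 in 0.75% and 3.61%. Unthinned shares of TNFSF11 were 1.47% and 7.11%.

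Among the receptors, TNFRSF12A was found in 99.5% of control cells and in 100% after TGF-β1, and LTBR in 82.6% and 76.6%. TNFRSF1A was found in 63.1% of control cells (61.6 to 64.7) and 42.5% after TGF-β1 (41.1 to 44.0), and TNFRSF1B in 46.5% (44.9 to 48.1) and 30.1% (28.8 to 31.5). Unthinned, these were 89.3% and 69.5% for TNFRSF1A and 75.3% and 52.9% for TNFRSF1B. Both TNF receptors were thus found in fewer of the cells after TGF-β1, thinned or not. CD40 was found in 21.1% and 12.3%, FAS in 11.9% and 8.31%, and TNFRSF6B in 11.0% and 6.83%. TNFRSF14 was found in 23.5% of control cells (22.2 to 24.9) and 6.51% of TGF-β1 cells (5.81 to 7.27), and TNFRSF19 in 4.42% (3.80 to 5.12) and 0.244% (0.122 to 0.436). TNFRSF13B and TNFRSF11A were found in more cells after TGF-β1, 7.68% and 10.5% for TNFRSF13B and 2.77% and 4.21% for TNFRSF11A. The intervals of the libraries met for TNFRSF21, at 3.00% and 3.52%, and for TNFRSF9 (ENSECAG00000017309), at 2.56% and 2.10%, so these shares could not be told apart at this depth. For the TRAFs, the share of TRAF7 was 51.4% and 32.2%, whereas TRAF3 had 35.1% and 42.7%. The intervals of TRAF4, at 52.1% and 50.7%, met.

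**Figure D3:**
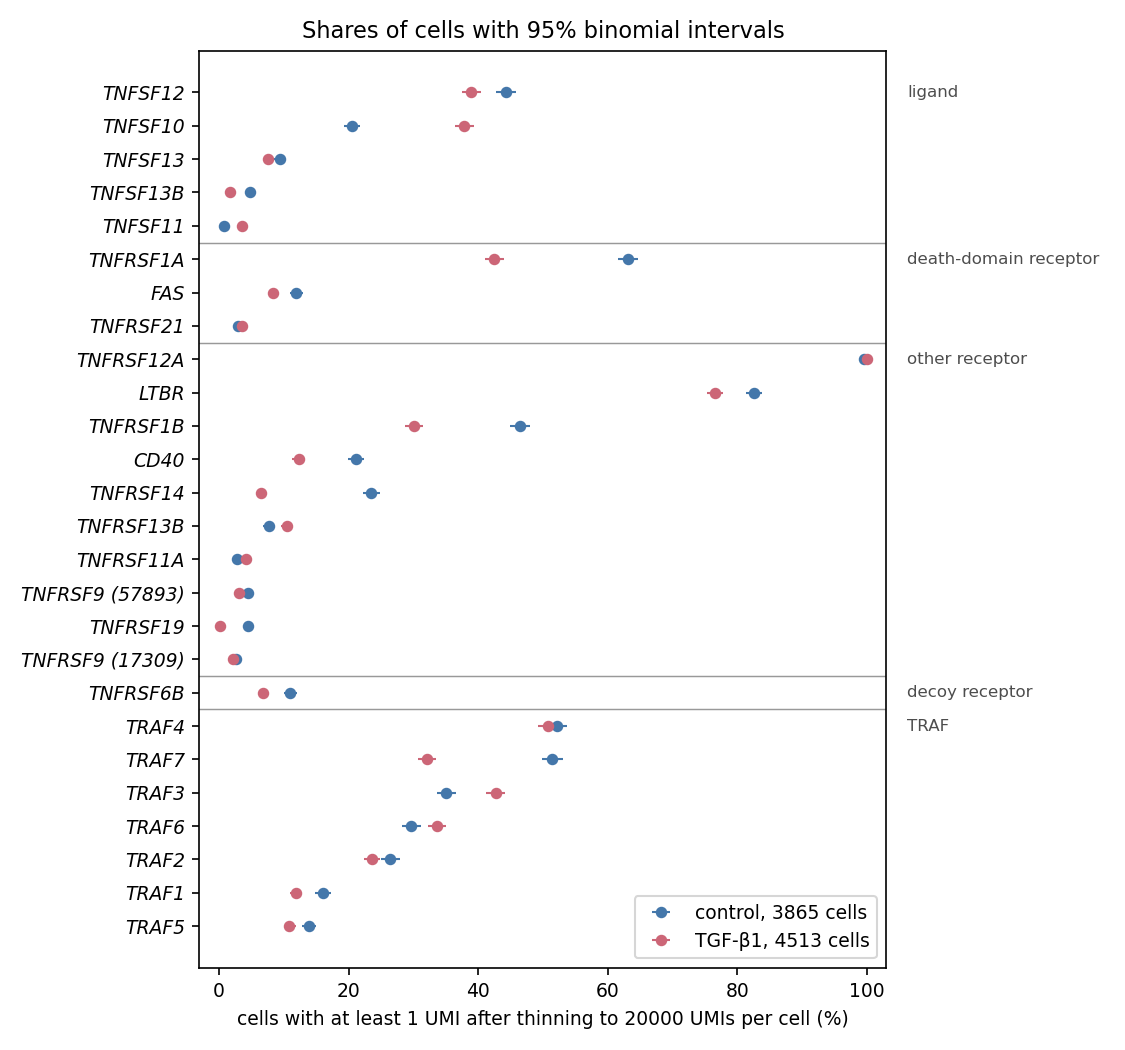
The horizontal axis gives the percentage of cells with at least 1 UMI after thinning to 20000 UMIs per cell, and the vertical axis lists the 26 members by role. Points are the control (blue, 3865 cells) and TGF-β1 (red, 4513 cells) library with exact 95% binomial intervals, and TNFSF10 and TNFRSF14 lie far apart in opposite directions.

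To see how far the members varied among the fibroblasts, cells of both libraries were clustered together on 2000 variable genes from which the members had been left out. This gave 8 clusters, numbered 0 to 7, with 115 to 764 control cells and 58 to 1063 TGF-β1 cells each. They are called by number and were not matched to the study's clusters. A direction was read in a cluster when a gene had over 3 UMIs in at least 1 library, which held in all 8 clusters for 25 of the 26 members. Of these 25, 13 were lower after TGF-β1 in every cluster and TNFSF10 and TNFRSF12A were higher in every cluster. Among all 11721 genes so measured, 23% were lower in every cluster and 18.5% were higher. These counts are by sign alone. In every cluster the interval also lay off 0 for TNFRSF12A and for LTBR, TNFRSF1A, TNFRSF1B, TNFRSF14 and TRAF7, and for TNFRSF19 wherever both libraries had UMIs, while each of the other 8 had at least 1 cluster where it spanned 0. The 13 were TNFSF12, TNFSF13, TNFSF13B, FAS, TNFRSF1A, TNFRSF1B, LTBR, TNFRSF14, TNFRSF19, CD40, TNFRSF9 (ENSECAG00000057893), TRAF1 and TRAF7.

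The ratio of TNFRSF12A ranged from 0.79 in cluster 6 to 1.29 in cluster 7. TNFRSF14 was more than 2-fold lower in all 8 clusters, with ratios from -2.45 in cluster 3 to -1.30 in cluster 7, where it rested on 72 and 13 UMIs. TNFRSF1B ranged from -1.10 to -0.67 and TNFRSF1A from -1.13 to -0.62. These receptors therefore differed in the same direction in each group of cells.

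TNFSF10 varied more. Its ratio was 1.53 in cluster 6, whose leading genes CENPF and CDC20 belong to mitosis, and 0.04 (-0.33 to 0.40) in cluster 7, whose leading genes included CA4 and GDF15. Cluster 7 had the highest control level of TNFSF10, 33.3 CPM, and 34.1 CPM after TGF-β1, and cluster 3 the lowest, 7.26 and 13.8 CPM. Cluster 4 reached 54.8 CPM after TGF-β1 from 25.0 CPM. FAS also stood apart in cluster 7, at 29.3 CPM in control cells and 26.3 CPM after TGF-β1, while the other clusters had 4.94 to 7.48 CPM in control cells. TNFRSF19 was likewise highest in cluster 7, at 7.57 CPM on 46 control UMIs, and had 2 UMIs there after TGF-β1. Cluster 7 was the smallest, with 115 control cells and 58 TGF-β1 cells.

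Cluster 5, with CFD and C1R among its leading genes, had the highest control levels of TNFRSF1A (95.3 CPM), LTBR (142 CPM) and TNFRSF14 (24.4 CPM). After TGF-β1 cluster 5 was still the highest for these receptors, at 48.3, 124 and 5.69 CPM. They were not alone: control levels of TNFSF12 (49.6 CPM), TNFSF13, TNFRSF6B, TRAF2, TRAF5 and TRAF7 (56.4 CPM) were also highest in cluster 5. Control cells of cluster 5 had the lowest median of UMIs per cell, 41953. TNFRSF13B was almost absent from it, with 2 control UMIs and 3 after TGF-β1, and had 5.78 and 7.89 CPM in cluster 0. TNFSF11 was higher after TGF-β1 in 5 of the 6 clusters where both libraries had over 3 UMIs, and also in cluster 6, with 2 and 27 UMIs, and cluster 7, with 1 and 5. Its level after TGF-β1 was 4.30 CPM in cluster 4 and 0.194 CPM in cluster 3, where it had 11 and 6 UMIs. No increase of TNFSF11 was detectable in cluster 3, with a ratio of -0.38 (-2.10 to 1.18).

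**Figure D4:**
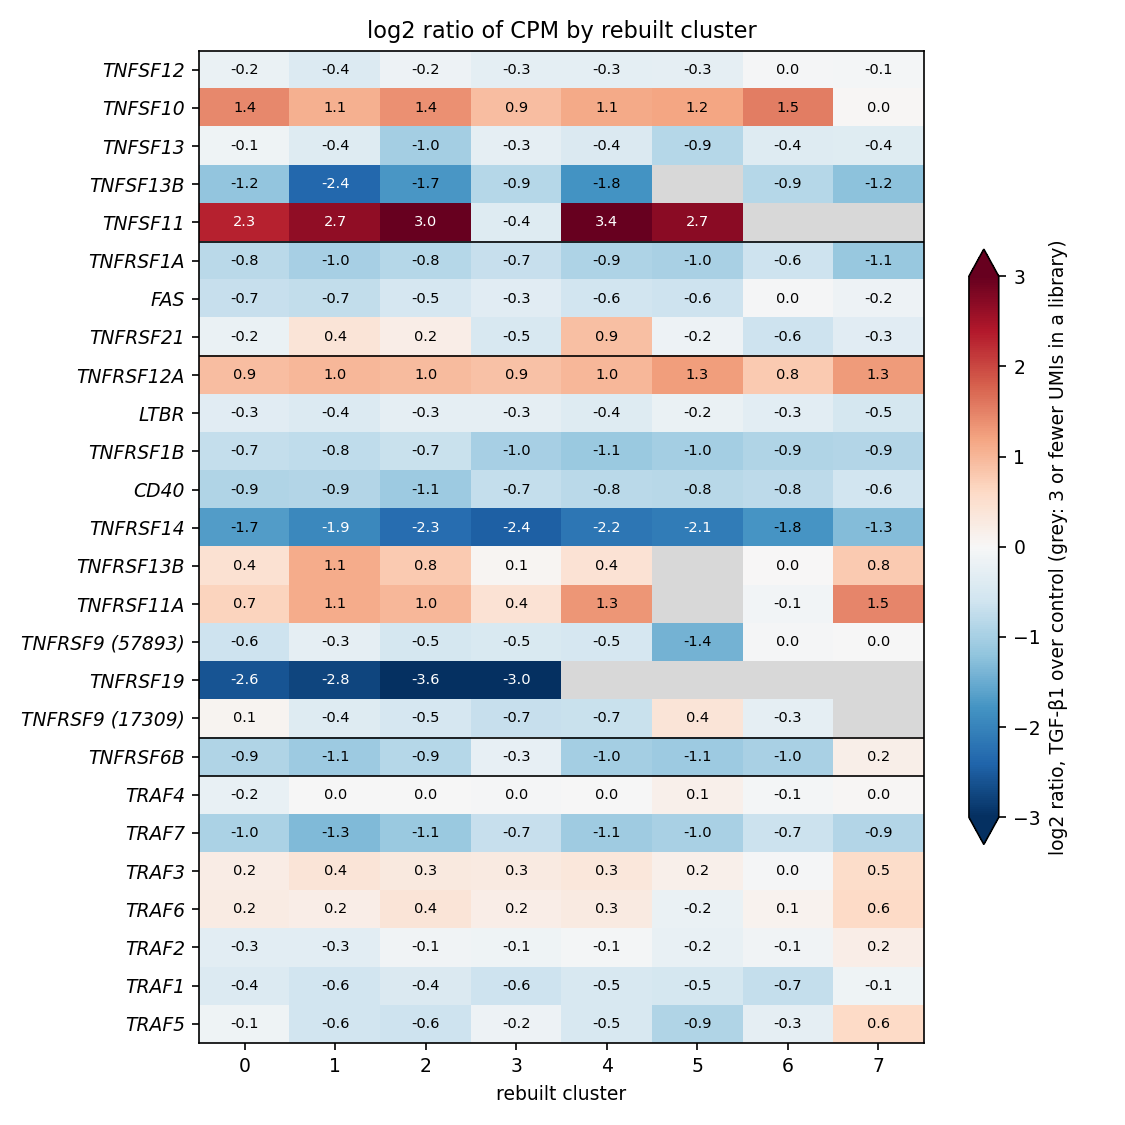
Each field gives the log2 ratio (TGF-β1 over control) for 1 of the 26 members (vertical axis, by role) in 1 of 8 rebuilt clusters (horizontal axis), from blue (lower) to red (higher), and grey where a library had 3 or fewer UMIs. The rows of TNFRSF12A and TNFSF10 are red throughout except for a value of 0.04 for TNFSF10 in cluster 7, and the row of TNFRSF14 is blue throughout.

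Cells were also split by marker transcripts seen in these cultures. Over 26 members and 5 markers (KRT8, VCAM1 and CFD in control cells, IGFBP3 and AREG after TGF-β1), 130 comparisons were made on thinned cells, of which 18 had intervals that did not meet, beside 6.22% of the comparisons over all genes, and the examples were chosen after their values were seen. TNFRSF6B was found in 26.7% (20.4 to 33.8) of the 180 VCAM1-positive control cells and in 10.2% (9.27 to 11.3) of the other control cells. TNFRSF1A was found in 75% and 62.6% of the same cells. In the 1721 CFD-positive control cells TNFSF10 was found in 25.0% (23.0 to 27.2), against 16.9% (15.3 to 18.5) of the others, and TNFRSF19 in 5.98% against 3.17%. For KRT8, with 986 positive control cells, 3 of 26 members lay apart. They were TNFRSF1A (68.4% against 61.3% of the others), TNFRSF19 (2.64% against 5.04%) and TRAF3 (31.1% against 36.4%). After TGF-β1, TNFSF11 was found in 4.61% (3.69 to 5.68) of 1802 IGFBP3-positive cells and 2.95% (2.35 to 3.66) of the others, but in 2.03% (1.26 to 3.08) of 1035 AREG-positive cells against 4.08% (3.45 to 4.79). Such shares describe cells of 1 library each, and their mares are not known.

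Cells with at least 3 of the 9 matched cycling markers made up 2.46% of control cells and 2.17% of TGF-β1 cells, 95 and 98 cells. The ratio had the same sign in cycling and other cells for 19 of the 26 members, beside 74% of all genes with a ratio in both. In the 7 others (TNFSF12, TNFSF13, TNFRSF11A, TNFRSF13B, TNFRSF21, TRAF3 and TRAF4), the interval in cycling cells spanned 0. TNFSF10 had a ratio of 1.23 in cycling cells, TNFRSF12A 0.84, and TNFRSF14 -1.95. These stayed beyond counting error even in the few cycling cells.

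For several receptors, ligands were at or near 0. TNF had 0 UMIs in both libraries, CD40LG 0 and 1, LTB 2 and 4, FASLG 1 and 1, and TNFSF14 1 and 0, while their receptors TNFRSF1A, TNFRSF1B, CD40, LTBR, FAS and TNFRSF14 all lay above 1 CPM. LTA, another ligand of several of them, had no matching symbol and was not measured. The death receptors of TNFSF10 had no matching symbol either. For TNFSF12 and TNFRSF12A both sides were present, and 1706 of 1713 TNFSF12-positive control cells and all 1759 after TGF-β1 also had TNFRSF12A, as nearly every cell did. TNFSF11 and its receptor TNFRSF11A were both higher after TGF-β1, but few cells held both. Of 163 TNFSF11-positive cells, 4 had TNFRSF11A, or 2.45% (0.673 to 6.16), against 4.28% (3.69 to 4.92) of the other TGF-β1 cells, so no excess was detectable at this depth. TNFRSF13B was found in 13.3% (6.58 to 23.2) of 75 TNFSF13B-positive cells after TGF-β1 and in 10.4% of the others, with overlapping intervals.

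The wider pathway was read from 9 lists of genes around these receptors, of which 79 genes reached a mean of 1 CPM. Of the 79, 52 were lower after TGF-β1 and 27 higher, with a median log2 ratio of -0.13, beside 51.3% of all genes lower and a median of -0.01. None was more than 2-fold higher (3.45% of all genes were) and 6 were more than 2-fold lower (3.46% of all genes were). The counting interval lay below 0 for 47 of the 79, above 0 for 23 and spanned 0 for 9, and the counts of higher and lower genes in each list are by sign alone. LTA, CD70, EDA2R, CRADD, BIRC2, CCL2, CCL5, CXCL1 and CXCL10 had no matching symbol and are not analysed here.

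Both family genes under other names that reached 1 CPM were higher after TGF-β1. EDA (ectodysplasin), a ligand of skin appendage development, had 5.52 and 8.42 CPM, and RELT, an orphan receptor, 200 and 335 UMIs. RELT lay below 1 CPM in the control library, so it passed the minimum only through the library where it was higher. The adaptors of the receptor and death complexes were nearly level, with 8 of 12 lower and a median of -0.11, and RIPK1, the kinase at the TNF receptor, was at 53.6 and 48.8 CPM. Of 14 genes for ubiquitin enzymes and inhibitors, 10 were lower (median -0.15), and TAX1BP1, the gene of this list with the highest mean, had 379 and 458 CPM. TNFAIP3, the inhibitor A20 and chosen after its values were seen, had 11.6 and 6.03 CPM, a ratio of -0.95.

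Among 15 IKK and NF-κB genes, 12 were lower (median -0.23). NFKBIA, the inhibitor IκBα and itself an NF-κB target, had 186 CPM in control cells and 79.5 CPM after TGF-β1, a ratio of -1.23. NFKB1 had 157 and 119 CPM. Of 11 NF-κB target genes, 8 were lower (median -0.45): VCAM1, an adhesion molecule for leukocytes, had 1473 and 4 UMIs and passed the minimum only through the control library, TNFAIP2 had a ratio of -2.12 and BCL3 one of -1.28, while IER3 was higher at 632 and 879 CPM.

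Of 8 stress kinases 6 were higher (median 0.03), of which 4 had an interval above 0, with MAP3K5 at 99.8 and 102 CPM, and MAP2K6 lower at 2.42 and 1.05 CPM. Of 13 apoptosis genes 8 were lower (median -0.19). BAX, a pore-forming protein of mitochondria, had 3053 and 1344 CPM, a ratio of -1.18. In RefSeq BAX lies beside the very abundant ferritin gene FTL, which has no row under that symbol here, so the count of BAX is uncertain. All 4 genes for shedding of TNF family proteins were lower (median -0.29), and ADAM17, the TNF convertase, had 39.4 and 37.8 CPM.

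**Figure D5:**
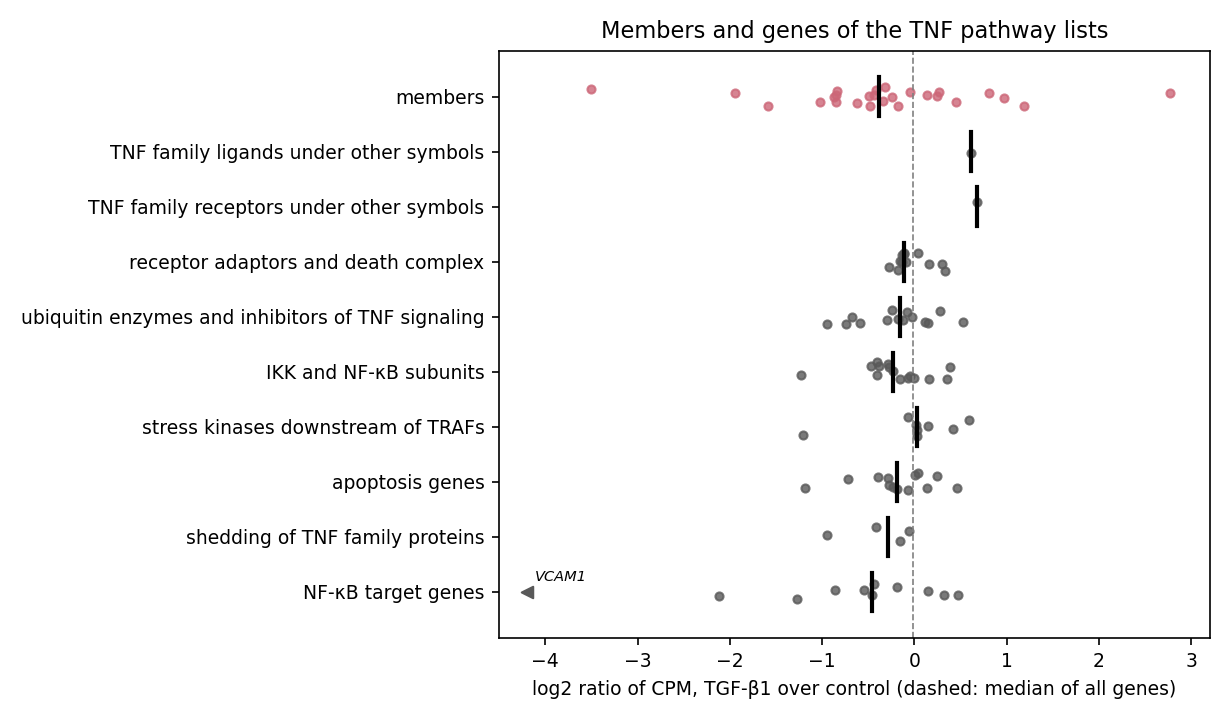
The horizontal axis gives the log2 ratio (TGF-β1 over control) for genes that averaged 1 CPM or more, with 1 point per gene, a black bar at the median of each row and a dashed line at the median of all genes. Rows are the 26 members (red) and 9 pathway lists (grey), and the medians of the members, -0.38, and of the NF-κB target genes, -0.45, lie left of the others. The arrow marks VCAM1, which is off the axis.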

How the data were processed

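The deposited values are UMI counts of each gene in each barcode, which the authors made with Cell Ranger (7.1.0 in the methods, 8.0.1 in the file headers) on EquCab3.0 with the Ensembl annotation, without normalization. Counts of kept cells were summed per library and scaled to CPM. Intervals are exact Poisson for CPM and exact binomial for shares and ratios. Ratios were not given where both libraries had 3 or fewer UMIs. Clusters were made in Seurat 5.3.0 (R 4.3.3) by canonical correlation integration, with 30 dimensions and resolution 0.5. Other values came from Python 3.11.15 (scipy 1.17.1, numpy 2.4.6, pandas 2.3.3) and plots from matplotlib 3.10.9. Every member with a mean of at least 1 CPM was named, those below it with their UMIs, and from each list the genes past 2-fold and the gene with the highest mean. All 37 member symbols matched RefSeq, which was used for names and neighbours only. The members and lists were chosen with earlier results of these data known. The study's edgeR tests and its doublet calls rest on mares called from reads and were not repeated, and no test was made here. The interval method was tested on simulated library totals with Poisson counting error alone. Uneven spread among cells and differences between mares were not simulated. Cell filters, thinning, scaling, CPM minimum, fold limit and clustering were varied.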

Additional observations from a re-analysis of the deposited data

How the results depend on the processing

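No ratio of the 26 members changed sign under 8 alternatives (every barcode, 10000 UMIs a cell, 6% mitochondrial UMIs, no cells above the 98th percentile of UMIs, a median-of-ratios size factor, mean CPM per cell, cells thinned, equal cluster shares). Of these 208 values, 202 stayed within the counting interval of the ratio, and the largest move was that of TNFRSF19, to -4.38 in thinned cells. Thinning left 11 TGF-β1 cells with 1 TNFRSF19 UMI each. The other moves were to -0.89 (TNFRSF1A, thinned), 1.12 and 1.13 (TNFSF10, mean per cell and thinned) and 1.01 and 1.02 (TNFRSF12A, likewise). Past 2-fold, TNFRSF12A was gained by both of these and TRAF7 was lost in thinned cells, at -0.99. With a minimum of 10 CPM, 11 members remained with a median of -0.18, and 2 were past 2-fold, 1 higher and 1 lower (4.43% of all genes). With no minimum, 12 of 36 were past 2-fold (13.7% of all genes), 6 of them higher, 3 of these (TNFSF8, TNFRSF4, TNFRSF13C) with intervals that spanned 0. At 1.5-fold, 13 of 26 were (17% of all genes), 4 higher and 9 lower. Without integration, 1 of 7 clusters held at least 50 cells of each library, so the count of 26 members with the same direction in every cluster is fixed in advance and says nothing about integration. The size factor shifted all ratios by 0.01. No paired analysis was possible because the counts used here hold 1 library per group and do not assign cells to mares. Differences between mares, cultures or library preparations are in no interval given here, and genes with few UMIs are limited by depth.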
